A study of Homo sapiens with 6 samples.

Results

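The AP-1 and EGR transcription factors are the best known products of the immediate early genes, which are transcribed within minutes of a growth factor, cytokine or stress signal without new protein synthesis. AP-1 is a dimer of basic leucine zipper proteins. JUN proteins pair with each other or with FOS proteins, and BATF, a small zipper protein of lymphocytes with no activation domain of its own, pairs with JUN proteins and binds DNA together with IRF4 or IRF8. EGR1 is a zinc finger factor induced through serum response elements, and IER2 and IER3 are short proteins induced with it. In plasma cells and multiple myeloma (MM), JUN family activity is known to respond to contact with stromal cells and to stress kinases.

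The 10 genes described here were FOS, FOSB, FOSL2, JUN, JUNB, JUND, EGR1, IER2, IER3 and BATF, taken by symbol from the 58735 genes of the expression table, and all 10 were listed once. RNA was sequenced from cells labelled MM.1S, an established human MM cell line, after transfection with a control siRNA (si-NC; control) or with siRNA against PRMT1 (PRMT1 KD), which encodes the main enzyme of asymmetric arginine dimethylation. Cells were collected 72 h after transfection with 100 nM siRNA, with 3 libraries in each group. Which of the listed PRMT1 siRNAs was used was not given in the sources used here. The study describes the biological replicates of its experiments as dependent, and neither its methods nor the labels say whether the libraries of a group came from separate cultures, so p-values measure only the spread between these libraries. Immediate early transcripts usually peak within an hour or so of a signal, and these values are levels at a single late time.

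PRMT1 fell from 61.7, 62.8 and 58.9 fragments per kilobase of gene scaled to library size (FPKM) in the control libraries to 13.3, 14.0 and 12.5 FPKM in the PRMT1 KD libraries (log2 fold change −2.13, SE 0.055, limma adjusted p = 2.77e-05). Libraries held 14439217 to 16465026 reads on genes. Of 10 plasma cell markers 8 were tested, and the list summed to 1239 to 1319 FPKM in controls and 1212 to 1391 FPKM in PRMT1 KD. The immunoglobulin joining chain JCHAIN, the receptor TNFRSF17 and the secretory factor XBP1 were the highest, at 496 ± 39.4, 262 and 287 ± 4.81 FPKM in controls. Among the 8, 4 did not overlap between groups, beside 25.9% of all genes tested. Of these 4, CD38 was higher in PRMT1 KD and XBP1, PRDM1 and SLAMF7 were lower. CD38 was low in both groups, at 1.92 ± 0.148 FPKM in controls and 2.45 ± 0.151 FPKM in PRMT1 KD (SD, n = 3; limma adjusted p = 0.193). XBP1 averaged 262 ± 5.37 FPKM in PRMT1 KD, and PRDM1, the plasma cell repressor, 18.1 ± 0.532 FPKM in controls and 15.9 ± 0.901 FPKM in PRMT1 KD (SD, n = 3; limma adjusted p = 0.133 and 0.136). SLAMF7, a surface antigen of plasma cells, was the 1 marker called of the 8, beside 2.05% of all genes tested. It fell from 38.0 ± 0.961 to 23.8 ± 1.17 FPKM (SD, n = 3; log2 fold change −0.65, limma adjusted p = 0.00515). MAF, which a translocation is known to drive to high levels in MM.1S, had 0 reads in all 6 libraries, which allows up to 3 reads, or 0.0260 to 0.0299 FPKM, per library if the row is complete. CCND1, the cyclin driven by another myeloma translocation, was at 112 ± 4.23 FPKM in controls and 101 ± 2.19 FPKM in PRMT1 KD (SD, n = 3). Whether the 0 for MAF reflects the cells or the table cannot be told apart here, so these values leave the identity of the line unchecked, and the label MM.1S is used as given. Of markers of other cells, all 6 myeloid and all 6 stromal and erythroid genes were under 1 FPKM. The myeloid genes summed to 0.0361 to 0.0992 FPKM in controls and 0 to 0.146 FPKM in PRMT1 KD, with 3 at 0 throughout, and the stromal and erythroid genes to 0 to 0.170 and 0.0185 to 0.0401 FPKM, with 4 at 0. Of 4 B cell genes 3 were under 1 FPKM, and the list summed to 1.20 to 1.64 FPKM in controls and 1.07 to 1.64 FPKM in PRMT1 KD. Of 6 T and NK cell genes 2 were under 1 FPKM, and the list summed to 39.1 to 43.3 and 43.0 to 46.0 FPKM. Most of it was CD3E, a CD3 chain of the T cell receptor complex, at 33.4 ± 1.89 and 38.1 ± 1.40 FPKM (SD, n = 3). JCHAIN, TNFRSF17, XBP1, PRDM1, CD38, MAF and CD3E were chosen after their values were seen.

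Promoters of JUNB, JUND and EGR1 are shown first, at unequal lengths. JUNB and JUND are paralogs on chromosome 19 whose log2 fold changes were 0.37 and −0.02, and neither was called. EGR1 was the member with CArG boxes among the 9 windows searched. The lines run 5′ to 3′ on the strand of the gene and end at the last base before the RefSeq start (GRCh38.p14). Capitals mark the CCAAT element, the TATA element (TATAAA), the cAMP response element TGACGTCA and the CArG boxes of serum response elements.
JUNB, chr19:12791386-12791485, plus strand: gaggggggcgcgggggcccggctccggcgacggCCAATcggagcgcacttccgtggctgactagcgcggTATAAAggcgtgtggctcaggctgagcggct
JUND, chr19:18281623-18281872, minus strand: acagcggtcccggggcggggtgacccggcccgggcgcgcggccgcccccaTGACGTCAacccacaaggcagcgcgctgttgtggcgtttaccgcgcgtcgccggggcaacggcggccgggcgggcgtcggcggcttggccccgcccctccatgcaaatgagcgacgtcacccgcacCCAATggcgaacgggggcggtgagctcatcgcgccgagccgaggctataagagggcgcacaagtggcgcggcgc
EGR1, chr5:138465329-138465478, plus strand: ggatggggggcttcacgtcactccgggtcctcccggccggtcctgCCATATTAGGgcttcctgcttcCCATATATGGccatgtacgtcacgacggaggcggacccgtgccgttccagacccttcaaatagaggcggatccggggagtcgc
These letters were searched on both strands from 250 bases before to 50 bases after the start, in 9 members with a RefSeq entry (IER3 had none) and in 35116 promoters in all. JUNB held CCAAT with its first base at −67 and TATAAA at −31, and JUND held TGACGTCA at −200 and CCAAT at −74. EGR1 held CArG boxes at −105 and −83, and an EGR1 element, GCGCGGGCG, at −198. JUN held CCAAT at −87 and TGACATCA, the AP-1-like element known from its promoter, at −67. FOS and FOSB held TATAAA at −33 and −30, FOSL2 held the AP-1 element TGACTCA at 5 bases past the start, and the BATF and IER2 windows held none of the motifs. Of all promoters, a CArG box was in 1.29%, TGACGTCA in 1.85%, TGACTCA in 4.95%, TGACATCA in 2.61%, GCGNGGGCG in 9.43%, TATAAA in 11.5% and CCAAT in 34.6%. A match is a description of the exact letters only, and its part in any change was not tested. Elements farther from the start, as known for FOS, were not searched.

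Levels are compared between genes per length, as mean FPKM in the control libraries. JUND was highest at 117 ± 11.6 FPKM, followed by JUNB at 46.6 ± 4.39 FPKM, JUN at 20.9 ± 2.14 FPKM and IER2 at 19.1 ± 0.743 FPKM (SD, n = 3). JUN and IER2 overlapped between libraries, and JUNB and JUND stood apart from each other and from both. BATF at 4.56 ± 0.0559 FPKM, FOSL2 at 3.83 ± 0.507 FPKM and IER3 at 3.79 ± 0.393 FPKM formed the next level, where FOSL2 and IER3 overlapped and BATF lay above both in every library. FOSB at 0.403 ± 0.115 FPKM, EGR1 at 0.214 ± 0.00317 FPKM and FOS at 0.120 ± 0.0777 FPKM were lowest. The 3 JUN family genes summed to 185 ± 18.1 FPKM and FOS, FOSB and FOSL2 to 4.35 ± 0.628 FPKM in controls (SD, n = 3), a ratio of 42.6, and 88.1% of the FOS family sum was FOSL2. With PRMT1 KD the order of the middle genes turned over, with IER3 highest, then FOSL2, then BATF, and no overlap among the 3 genes.

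**Figure D1:**
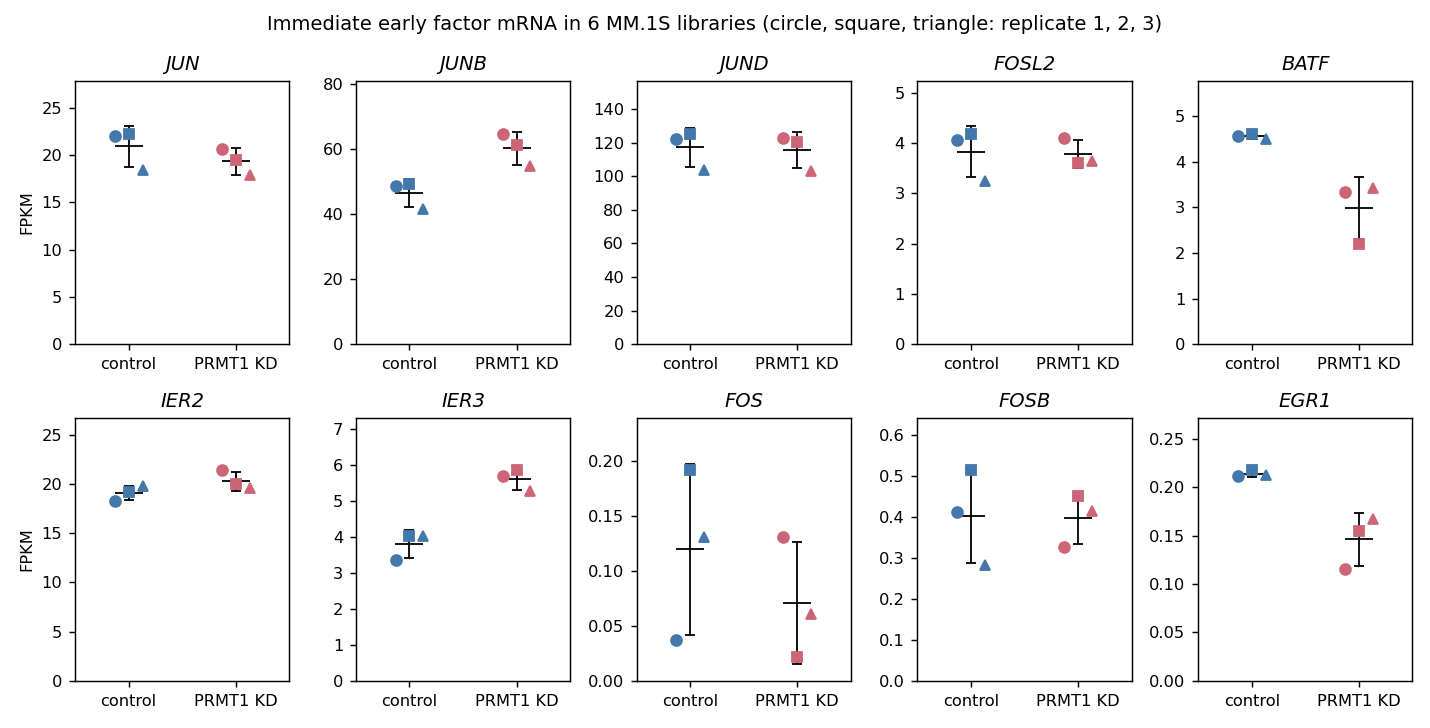
FPKM of each of the 10 members in 3 control (blue) and 3 PRMT1 KD (red) libraries, each panel on its own linear axis from 0, with replicates 1, 2 and 3 as circle, square and triangle and the horizontal line and bars as mean and SD. JUNB and IER3 lay higher in all 3 PRMT1 KD libraries and BATF and EGR1 lower, and replicate 3 was lowest in both groups for JUN, JUNB and JUND.

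Differences were tested with limma on log2(FPKM + 1) over the 13585 genes with a mean of at least 1 FPKM, which 7 of the 10 members reached. A gene was called changed at an adjusted p under 0.05. Of the 7 members 1, IER3, was called, and it rose, beside 2.05% of all genes tested (145 higher and 134 lower). The groups did not overlap for 3 members, JUNB and IER3 higher and BATF lower, which is 42.9% of the 7, beside 25.9% of all genes tested. The median log2 fold change of the 7 was −0.0094, and that of all genes tested 0.0095. A fold change on log2(FPKM + 1) understates the change of genes at a few FPKM, such as IER3 and BATF.

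**Figure D2:**
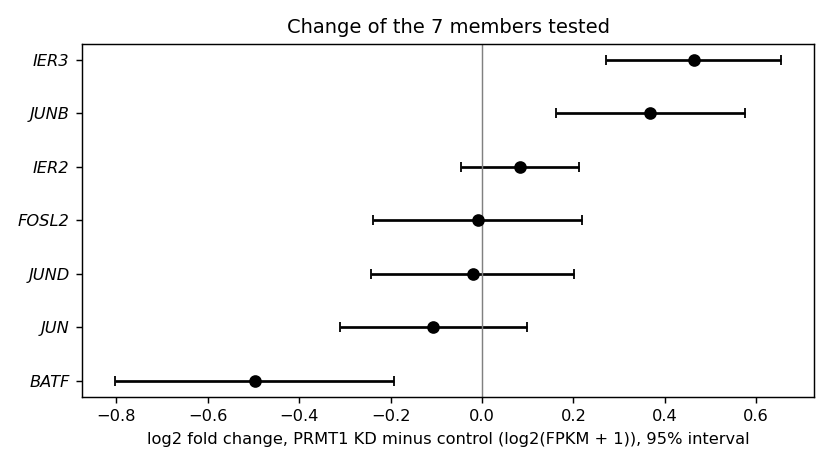
Log2 fold change of log2(FPKM + 1), PRMT1 KD minus control, for the 7 members tested, with points as limma estimates and bars as 95% intervals over 3 libraries a group. The intervals of IER3 and JUNB lay above 0, that of BATF below 0, and those of IER2, FOSL2, JUND and JUN crossed 0.

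JUNB is the JUN paralog best known for antagonising JUN on some promoters and for roles in lymphoid and plasma cell proliferation. The gene lies on the plus strand of chromosome 19 (hg38, chr19:12791496-12793315) (ENSG00000171223). Its main transcript is a single exon, as are those of JUN, JUND and IER2, beside a median of 8 exons over 19666 protein-coding genes. JUNB read 48.8, 49.4 and 41.5 FPKM in controls and 64.8, 61.4 and 54.9 FPKM in PRMT1 KD, from 1249 to 1471 and 1521 to 1948 reads. The lowest PRMT1 KD library lay above the highest control library. The mean was 130% of control and the log2 fold change 0.37 (SE 0.0874, 95% interval 0.16 to 0.57), with a limma adjusted p of 0.0864 and an exact permutation p of 0.1, the smallest that 3 against 3 libraries allow. JUNB was therefore not called, although its unadjusted p was 0.00398. HOOK2, which overlaps JUNB on the opposite strand, was at 4.59 ± 0.0580 FPKM in controls and 4.61 ± 0.121 FPKM in PRMT1 KD (SD, n = 3). Whether reads were counted by strand was not given in the sources used here.

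JUND (ENSG00000130522, chr19:18279760-18281622, minus strand), the most abundant member and the JUN paralog that is least induced by signals, read 122, 125 and 104 FPKM in controls and 123, 120 and 103 FPKM in PRMT1 KD. The groups overlapped almost fully. The log2 fold change was −0.02 with a 95% interval of −0.24 to 0.20 (limma adjusted p = 0.933). JUN (ENSG00000177606, chr1:58780788-58784327, minus strand), the founding AP-1 subunit, read 22.1, 22.3 and 18.5 FPKM in controls and 20.6, 19.5 and 17.9 FPKM in PRMT1 KD. These groups also overlapped, and the log2 fold change was −0.11 (95% interval −0.31 to 0.10, limma adjusted p = 0.540). All 3 JUN genes were lowest in replicate 3 of both groups. Some genes outside the family, such as SRF and EP300, were too, so this was not particular to the JUN genes. Their SD within groups was high for genes tested within 2-fold of their level, at percentile 93.6 for JUND, 89.3 for JUNB and 82.6 for JUN, against 26.0 for IER2 and 44.3 for IER3.

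Since the JUN paralogs went up and down together between libraries of a group, their ratio within each library was also computed, after the members' values had been seen. The JUNB to JUND ratio of FPKM was 0.399, 0.394 and 0.400 in controls and 0.529, 0.510 and 0.532 in PRMT1 KD. The means were 0.398 ± 0.00309 and 0.524 ± 0.0117 (SD, n = 3), 1.32-fold apart, with no overlap and an exact permutation p of 0.1, the smallest possible. Leaving out each library in turn gave 1.31-fold to 1.33-fold. The JUNB to JUN ratio likewise went from 2.21, 2.22 and 2.25 to 3.14, 3.15 and 3.07. The JUN to JUND ratio was 0.180, 0.178 and 0.178 in controls and 0.168, 0.162 and 0.173 in PRMT1 KD, also without overlap but 0.939 of control. As shares of the JUN family sum, JUNB went from 25.2% to 31.0%, JUND from 63.4% to 59.1% and JUN from 11.3% to 9.92%. The family sum itself, 185 ± 18.1 and 195 ± 16.9 FPKM (SD, n = 3), overlapped between groups (exact permutation p = 0.5). The ratio was chosen after the values were seen and none of the 3 paralogs was called, so these values describe the 6 libraries and do not show which paralog differed.

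**Figure D3:**
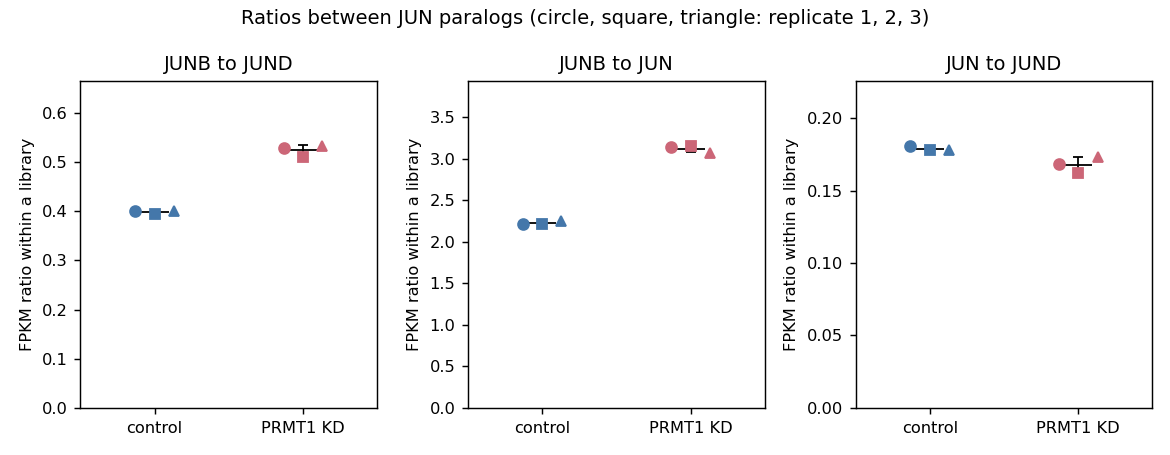
Ratios of FPKM between JUN paralogs within each library, on linear axes from 0, for 3 control (blue) and 3 PRMT1 KD (red) libraries, with replicates 1, 2 and 3 as circle, square and triangle and lines and bars as mean and SD. JUNB to JUND lay at 0.394 to 0.400 in controls and 0.510 to 0.532 in PRMT1 KD, and JUNB to JUN at 2.21 to 2.25 and 3.07 to 3.15.

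The FOS family was scarce in both groups. FOSL2 (Fra-2; ENSG00000075426, chr2:28392448-28417312, plus strand), the member known to persist after the early FOS proteins are gone, read 4.05, 4.18 and 3.25 FPKM in controls and 4.10, 3.61 and 3.64 FPKM in PRMT1 KD. Its groups overlapped, and the log2 fold change of −0.0094 had a 95% interval of −0.24 to 0.22 (limma adjusted p = 0.971). FOS (ENSG00000170345, chr14:75278774-75282230, plus strand), the classical partner of JUN, had 2, 10 and 7 reads in controls and 7, 1 and 3 reads in PRMT1 KD. FOSB (ENSG00000125740, chr19:45467995-45475179, plus strand) had 38, 46 and 26 reads in controls and 30, 36 and 35 reads in PRMT1 KD. Both were under 1 FPKM and entered no main test, and a difference in FOS could not be resolved at these counts. FOSB also shares its locus with ERCC1 on the opposite strand, at 7.58 ± 0.379 and 6.19 ± 0.172 FPKM (SD, n = 3), well above FOSB itself.

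BATF, which with IRF4 binds AP-1 and interferon composite elements in B and T lymphocytes, lies on chromosome 14, 240 kb from FOS (ENSG00000156127, chr14:75522425-75547015, plus strand, hg38). It read 4.56, 4.62 and 4.51 FPKM in controls and 3.34, 2.20 and 3.42 FPKM in PRMT1 KD, from 73 or 74 and from 31 to 54 reads. All PRMT1 KD libraries lay below all controls, with replicate 2 lowest. The PRMT1 KD mean was 65.4% of control, and the log2 fold change was −0.50 (SE 0.129, 95% interval −0.80 to −0.19) with a limma adjusted p of 0.104 and an exact permutation p of 0.1. BATF was thus not called, and without PRMT1 KD replicate 2 the log2 fold change was −0.35. The SD of the control counts, 0.577 reads, was smaller than the counting error of 8.56 reads that a mean of 73.3 reads carries. IRF4, the myeloma survival factor that BATF partners, was at 116 ± 1.36 FPKM in controls and 116 ± 1.37 FPKM in PRMT1 KD (log2 fold change 0.0049, limma adjusted p = 0.961), and IRF8 was under 1 FPKM. BATF2, a paralog of BATF, was more abundant, at 55.8 ± 2.72 and 50.7 ± 3.34 FPKM (log2 fold change −0.14, limma adjusted p = 0.284). BATF2 was chosen after its values were seen.

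EGR1 (ENSG00000120738, chr5:138465490-138469315, plus strand) had 11, 11 and 11 reads in controls and 6, 7 and 8 reads in PRMT1 KD, or 0.214 ± 0.00317 and 0.146 ± 0.0269 FPKM (SD, n = 3). The groups did not overlap (exact permutation p = 0.1, the smallest possible). The control counts happened to be equal, and a mean of 11 reads carries a counting error of 3.32 reads. In a fit with no filter on low values the log2 fold change was −0.083 with a limma adjusted p of 0.585. At this level log2(FPKM + 1) strongly understates a change, and the PRMT1 KD mean was 68.3% of control in FPKM. Of 6 EGR1 corepressors and target genes, all were tested and 0 were called, beside 2.05% of all genes tested. Their log2 fold changes ran from −0.15 for CCND1 (limma adjusted p = 0.139) to 0.25 for NAB1, which encodes an EGR corepressor (limma adjusted p = 0.134). Of the 6, 3 did not overlap between groups, beside 25.9% of all genes tested.

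IER3, a stress and NF-κB inducible regulator of apoptosis, lies on the minus strand of chromosome 6 (ENSG00000137331, chr6:30743199-30744554, hg38). It read 3.34, 4.02 and 4.02 FPKM in controls and 5.67, 5.84 and 5.28 FPKM in PRMT1 KD, from 75 to 90 and from 109 to 127 reads. Every PRMT1 KD library was above every control. The mean rose to 148% of control, with a log2 fold change of 0.46 (SE 0.081, 95% interval 0.27 to 0.65), a limma adjusted p of 0.0460 and an exact permutation p of 0.1. This was the smallest p of the 7 members, but the call lay at the threshold and was lost whichever single library was left out (adjusted p 0.0775 to 0.161, log2 fold change 0.39 to 0.50). IER3-AS1, antisense to IER3, was at 0.310 ± 0.180 and 0.256 ± 0.235 FPKM (SD, n = 3).

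IER3 also carried the most copies of the AU-rich core TATTTAT in the 3′ UTR of its main transcript among the members, 4, in 737 bases. Those of the 4 whose windows of 29 bases share no base with that of another site are given as DNA, with the core in capitals, since AU-rich elements are the feature through which early response mRNAs are known to be short-lived.
IER3, core starting 318 bases past the stop codon: tgtgtacgtaaTATTTATtttaacttatg
IER3, core starting 381 bases past the stop codon: aggtctcttggTATTTATtgagctttgtg
FOS and FOSL2 held 2 copies each, FOSB, JUN and JUND 1 each, and JUNB, EGR1, IER2 and BATF 0, beside 27.8% of all protein-coding genes with at least 1. The order differed for the shorter core ATTTA, of which FOSL2 held 9 copies, IER3 6, FOS 5, and FOSB and JUN 3 each. JUNB held 2 of these, JUND and EGR1 1 each, and IER2 and BATF 0, beside 62.0% of all protein-coding genes with at least 1. Both searches were chosen after the values had been seen, and the part of these elements in any change was not tested. Of 11 AU-rich mRNA decay factors 0 were called, beside 2.05% of all genes tested. Their log2 fold changes ran from −0.13 for KHSRP (limma adjusted p = 0.450) to 0.21 for ZFP36L1 (limma adjusted p = 0.271).

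IER2, a nuclear immediate early protein encoded 357 kb from JUNB (ENSG00000160888, chr19:13150415-13154908, plus strand), read 18.3, 19.2 and 19.8 FPKM in controls and 21.4, 20.0 and 19.6 FPKM in PRMT1 KD. One PRMT1 KD library lay within the control range, and the log2 fold change was 0.083 (95% interval −0.045 to 0.21, limma adjusted p = 0.450). The profile of IER3 over the 6 libraries was nearest to that of AC008105.3 (Euclidean distance 0.125 in centred log2(FPKM + 1)), then ANKRD20A9P (0.165) and SNORD17 (0.176), of 7710 genes compared.

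Other immediate early genes, from a list of general knowledge, were read beside the members. The list was drawn up with earlier results of these data known, and whether its genes moved more often was not tested. Of 26 on the list 17 were tested, 6 rose and 1 fell, beside 2.05% of all genes tested that were called, and 10 did not overlap between groups, beside 25.9% of all genes tested, and the median log2 fold change was 0.20. IER5L, a relative of IER2, read 7.95, 8.07 and 7.23 FPKM in controls and 13.1, 13.2 and 12.7 FPKM in PRMT1 KD (log2 fold change 0.68, limma adjusted p = 0.00858). KLF2, a Krüppel-like factor of quiescent lymphocytes, read 26.0, 26.9 and 24.4 FPKM in controls and 40.8, 38.7 and 37.8 FPKM in PRMT1 KD (0.58, limma adjusted p = 0.0121). Both groups of 3 were far apart for these genes. MYC, the growth-promoting factor, rose from 223 ± 11.1 to 279 ± 10.2 FPKM (SD, n = 3; limma adjusted p = 0.0399), a log2 fold change of 0.32. TRIB1, a pseudokinase scaffold, rose by 0.28 (limma adjusted p = 0.0302). KLF10 and KLF6, further Krüppel-like factors, rose by 0.29 and 0.25 (limma adjusted p = 0.0487 and 0.0470). ARC, best known from neurons, fell from 11.8 ± 1.72 to 7.39 ± 0.232 FPKM (SD, n = 3; log2 fold change −0.60, limma adjusted p = 0.0390). Over all the related lists 8 of 84 genes tested were called with the 6 libraries, beside 2.05% of all genes tested. When 1 library was left out 0 to 3 genes were called, not compared by name with the 8.

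**Figure D4:**
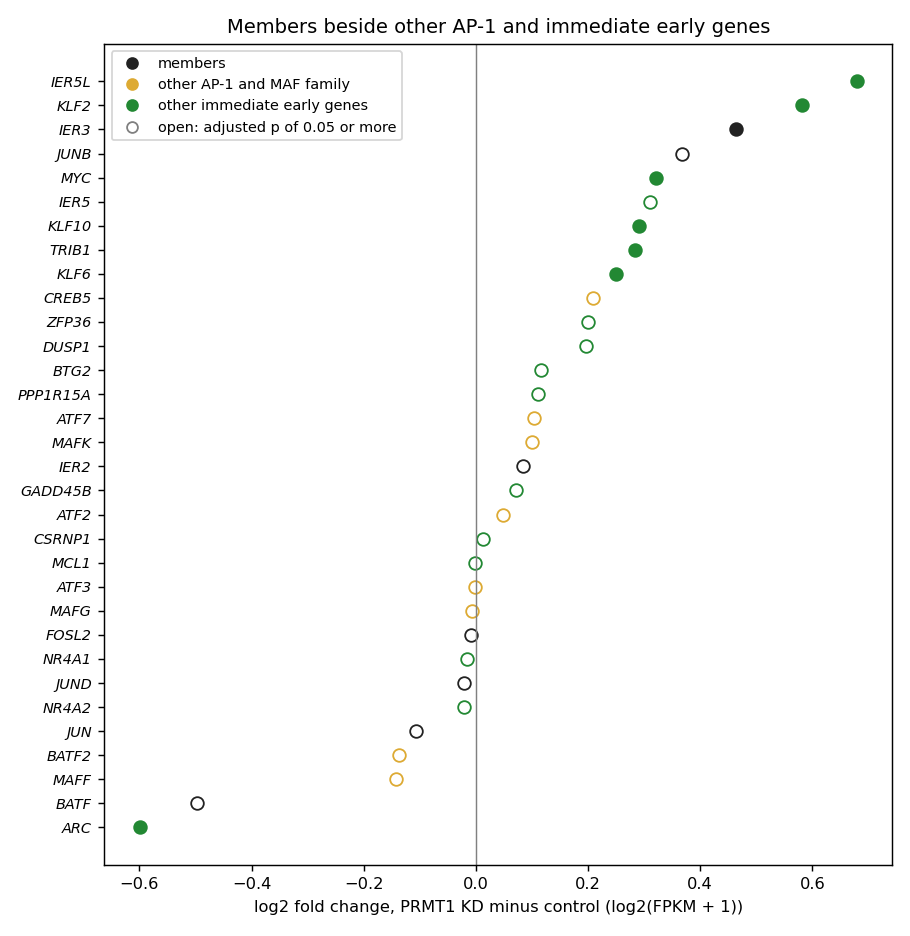
Log2 fold change of log2(FPKM + 1), PRMT1 KD minus control, over 3 libraries a group, for the tested members (black), other AP-1 and MAF genes (yellow) and other immediate early genes (green), filled where the limma adjusted p was under 0.05. Filled points were IER5L, KLF2, IER3, MYC, KLF10, TRIB1 and KLF6 above 0 and ARC below 0, and no other AP-1 or MAF gene was filled.

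Of the other AP-1 and MAF genes 8 of 13 were tested and 0 called (2.05% of all genes tested). Of the 8, 2 did not overlap (25.9% of all genes tested), and the median log2 fold change was 0.023. Values ran from −0.14 for MAFF, a small MAF protein (limma adjusted p = 0.448), to 0.21 for CREB5 (adjusted p = 0.178). Upstream of the members, 0 of 11 SRF, TCF and CREB factors were called (2.05% of all genes tested). Of the 11, 2 did not overlap (25.9% of all genes tested). Values ran from −0.093 for ELK1 (adjusted p = 0.618) to 0.22 for ELK4, another SRF cofactor (adjusted p = 0.154). Of 18 MAPK pathway kinases 17 were tested and 0 called (2.05% of all genes tested), and 4 did not overlap (25.9% of all genes tested). Their values ran from −0.22 for MAP2K3, an activator of p38 kinases (adjusted p = 0.139), to 0.23 for RPS6KA3, a kinase downstream of ERK (adjusted p = 0.117). Of 12 MAPK feedback inhibitors 7 were tested and 1 was called, beside 2.05% of all genes tested. This was SPRY1, an inhibitor of receptor tyrosine kinase signaling, which rose from 5.71 ± 0.110 to 7.79 ± 0.607 FPKM (SD, n = 3; log2 fold change 0.39, limma adjusted p = 0.0443). These lists hold mRNA levels and not kinase activity. Of 7 heat shock genes, some induced by the stresses that also induce AP-1, 0 were called (2.05% of all genes tested). Of the 7, 2 did not overlap between groups (25.9% of all genes tested). The list summed to 459 to 480 FPKM in controls and 513 to 598 FPKM in PRMT1 KD. Most of this difference lay in HSPA8, at 247 ± 14.4 and 319 ± 27.5 FPKM (SD, n = 3; log2 fold change 0.36, limma adjusted p = 0.0629). The others ran from −0.084 for HSPA1A (limma adjusted p = 0.570) to 0.051 for HSP90AA1 (limma adjusted p = 0.774). The part of the heat shock genes in the differences above was not tested. The shift of some plasma cell markers given above, SLAMF7 among them, moved with the same groups, and its part in these differences was not tested either.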

How the data were processed

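RNA-seq of 3 control and 3 PRMT1 KD libraries was analysed, grouped by their labels. The authors deposited FPKM values per gene with gene length and coordinates. The submitters' processing notes name featureCounts 1.5.0-p3 and hg38, and the aligner is not given in the sources used here. FPKM times gene length came out as whole reads, within 0.1 read, for 100% of values, which gave the read counts quoted. The counting errors and the floor given for reads cover counting error only, while the 95% intervals of fold changes come from limma and cover the spread between libraries.

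Expression was tested with limma 3.58.1 in R 4.3.3 on log2(FPKM + 1), with empirical Bayes and a mean-variance trend, two-sided, with Benjamini-Hochberg adjustment over genes with a mean of at least 1 FPKM. The fit was tested on simulated data. Exact permutation tests were two-sided. Genes named are PRMT1, the members, called genes of related lists or, where none was called, the lowest and highest fold change, and the 3 genes of at least 5 FPKM nearest to the member with the smallest p. Exceptions are stated. Members and lists were chosen with earlier results of these data known. Overlaps were read from GENCODE release 29, with which all 10 members shared coordinates. Among 16 alternatives were other scalings, filters and pseudocounts, voom and each library left out. A planned comparison of member proteins was not made.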

Additional observations from a re-analysis of the deposited data

How the results depend on the processing

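JUNB kept its direction in all 16 alternatives (log2 fold change 0.29 to 0.43) and passed the threshold in 4, with a filter of 5 FPKM, with voom on the reads at either filter, and with the replicate block. IER3 stayed higher in 15 alternatives (0.39 to 0.55) and passed in 3, and BATF stayed lower in 15 (−0.64 to −0.35) and passed in 0. The count of members called, 1, was 0 under median scaling, no filter and no mean-variance trend, and 0 to 0 without each library. With voom and with the replicate block the count was again 1, but the member was JUNB and not IER3. With a filter of 5 FPKM the 1 member called was also JUNB. That filter left 7710 genes in the adjustment, and IER3 was not tested. Genes called in the related lists, 8, were 4 under median scaling, 2 with no filter, 2 with no trend, 4 with the replicate block and 0 to 3 without each library. Members without overlap, 3, were 1 with a filter of 5 FPKM, under which fewer members were tested, and 3 to 5 without each library, the 5 without control replicate 3. Without each library FOSL2 ran from −0.10 to 0.045 and JUND from −0.10 to 0.057. The sign of FOSL2 turned to 0.0086 under TPM rescaling, 0.016 and 0.011 without PRMT1 KD replicates 2 and 3, and 0.026 and 0.045 without control replicates 1 and 2. That of JUND turned to 0.0071 under quantile normalization, 0.057 without PRMT1 KD replicate 3, and 0.012 and 0.030 without control replicates 1 and 2, with no call in any. Except where stated, the cause was not tested.

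Over all genes, 279 calls (145 higher) became 355 (222 higher) after TPM rescaling, 221 (82 higher) after median scaling, 473 with a filter of 5 FPKM, 35 with no filter, 43 with no trend, 890 and 882 with voom, and 13 to 94 without each library. Deviations of same-numbered libraries correlated by 0.02, 0.0631 and 0.101, and others by −0.0751 to 0.0186, and each library correlated best with its own number. These correlations were small and the labels name no pairing, so the main fit was unpaired. Whether same-numbered libraries were paired cannot be told from these values. With the replicate block 204 genes were called, JUNB had an adjusted p of 0.0437 and IER3 of 0.0601. FOS and EGR1, with at most 11 reads a library, could not be resolved at this depth.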
